A study of Mus musculus with 11 samples.

Results

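The genes described here are 10 members of the JAK-STAT pathway, Jak1, Jak3, Stat3, Stat4, Stat5a, Stat5b, Socs1, Socs3, Cish and Pias1, taken by name from a table of 32469 gene symbols, of which 24024 had at least 1 read. They were measured by bulk RNA-seq in precursor exhausted CD8+ T cells from tumors of LLC (Lewis lung carcinoma), a transplantable lung cancer line that arose in a C57BL/6 mouse. Of 11 tumor-bearing mice, 5 were untreated and 6 received anti-LAG-3 (aLAG3), an antibody against LAG-3, an inhibitory receptor on activated and exhausted T cells. The mice were wild-type female C57BL/6 animals of 8 weeks, per the study's methods, with LLC cells placed under the skin of both flanks, and the antibody (clone C9B7W) was given intraperitoneally at 200 µg per mouse on days 14 and 16. The study's methods give days 14 and 18 for tumor excision in this experiment, whereas the deposited design text gives days 14 and 21. A control antibody for the untreated mice is not described in the sources used here. Cells were sorted from within the CD8+PD-1+Ly108+TIM-3- fraction, and the cells of each mouse gave 1 library.

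Cytokines such as IL-2, IL-7, IL-12, IL-15, IL-21 and the interferons bind receptors that carry Janus kinases (JAKs). The kinases phosphorylate STAT proteins, which dimerize, enter the nucleus and switch on target genes. Among these targets are the SOCS proteins and CISH, which act back on the receptors and kinases as feedback inhibitors, while PIAS proteins act on STATs in the nucleus as SUMO ligases.

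The sequence near the start site of the 3 feedback inhibitors is given from RefSeq on GRCm38.p6. It shows where letters of the kind that STAT dimers read lie in Cish and Socs3, and where those of an interferon-stimulated response element lie in Socs1. All 10 genes had a promoter window in that set (250 bases before and 50 after the first transcribed base), in 13 windows. The motif TTCNNNGAA, the half-sites of an activated STAT dimer with 3 bases between them, read the same on both strands, was found in 2 of the 13 windows, those of Cish and Socs3. Of all 32851 promoter windows of the same length, 8.30% held it, and 0.457% held it at least 2 times, as Cish did. In the stretches below, given 5′ to 3′ on the strand of the gene, the capitals mark these matches in Cish (chr9:107296599-107296678, plus strand) and Socs3 (chr11:117969472-117969551, minus strand). In Socs1 (chr16:10785572-10785651, minus strand) they mark 2 overlapping matches of GAAANNGAAA, the form of an interferon-stimulated response element, which was searched on both strands.
Cish: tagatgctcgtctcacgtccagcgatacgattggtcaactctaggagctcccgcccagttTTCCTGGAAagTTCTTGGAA
Socs3: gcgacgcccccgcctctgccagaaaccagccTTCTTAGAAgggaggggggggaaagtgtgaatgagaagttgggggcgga
Socs1: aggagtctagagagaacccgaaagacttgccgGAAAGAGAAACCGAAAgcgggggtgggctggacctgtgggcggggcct
The matches in Cish began at bases 0 and 11 counted from its first transcribed base, that in Socs3 at base -154, and those in Socs1 at bases -83 and -77. GAAANNGAAA was found in 3.44% of all promoter windows, and 0.225% held it at least 2 times, as Socs1 did. Besides Socs1 it occurred in 1 of the 2 Stat4 windows, at base -97. A match is a run of letters and was not tested as a binding site, and the other members had neither motif in these windows.

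Total counts per library ran from 317449 to 1271063 in untreated mice and from 313524 to 1901374 in anti-LAG-3 mice. Scaled to these totals, 3 counts amounted to between 1.58 and 9.57 CPM, the counts scaled to library depth. The other CPM values here use the TMM-normalized size of the filtered library, on which the same counts give slightly higher values. The markers of the sort, Cd8a, Cd8b1, Cd3e, Cd3g, Pdcd1 and Slamf6, summed to 4768 ± 53.4 CPM without treatment (SD, n = 5) and to 4809 ± 213 CPM with it (SD, n = 6). The CD4 T cell markers Cd4, Foxp3 and Cd40lg summed to at most 15.4 CPM in an untreated and 20.3 CPM in an anti-LAG-3 library, with at most 1 count of Cd4 and of Foxp3 in any library. The myeloid markers, 10 of 12 of which had a read while S100a8 and S100a9 were at 0, summed to between 16.5 and 50.6 CPM in untreated and between 17.4 and 122 CPM in anti-LAG-3 mice (two-sided exact permutation test, p = 0.281, adjusted p = 0.866 over 7 marker lists). The library titles carry an RNABC number that went with depth. RNABC9 held 6 libraries (untreated mice 1, 3 and 5 and anti-LAG-3 mice 6, 7 and 9) with totals of at least 566144, RNABC8 held 4 (untreated mouse 4 and anti-LAG-3 mice 8, 10 and 11) with at most 451465, and RNABC10 held untreated mouse 2 alone.

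The first comparison asked whether the level of each member changed after LAG-3 blockade. None of the 10 genes passed the test, and neither did any other gene. After Benjamini-Hochberg adjustment, the quasi-likelihood test of edgeR gave an adjusted p of 0.999 for each of the 10, all of which passed the filter on low counts, and 0 of 6949 genes tested were called (0% of the background). The likelihood ratio test of edgeR and DESeq2 also called 0. At an unadjusted p under 0.05, 259 of 6949 genes (3.73%) passed in the quasi-likelihood test, 307 in the likelihood ratio test and 163 in DESeq2, and 2 of the 10 members did in the first, Stat4 and Stat5b, both with lower levels after blockade. Of the 10 members, 5 had higher and 5 lower fitted levels, with a median log2 fold change of -0.043 (all genes: median 0.0045, 51.1% higher). By the difference in mean log2 CPM, 2 were higher and 8 lower, since Socs1, Socs3 and Pias1 had small differences that turned sign between the measures. The CPM values of the groups overlapped for each of the 10 members, while they did not for 0.475% of all genes tested. In bulk samples a lower level can come from fewer cells of a type or from less RNA per cell, and these cannot be told apart here.

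**Figure D1:**
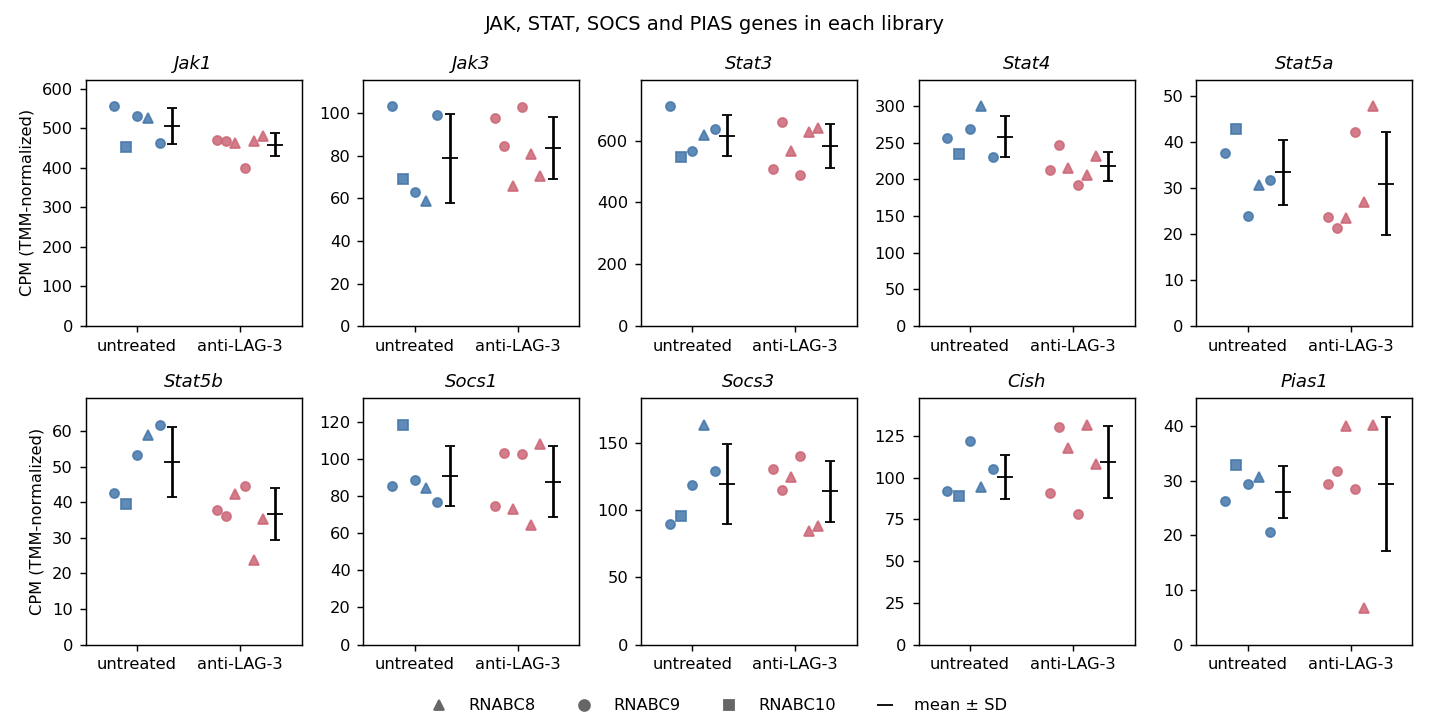
CPM (TMM-normalized, linear axes from 0) of each of the 10 genes in the 5 untreated (blue) and 6 anti-LAG-3 (red) libraries, in order of library number within a group, with marker shapes for the RNABC number and bars for the mean ± SD. Every anti-LAG-3 library lies below the untreated median for Jak1, Stat4 and Stat5b, and the groups overlap for all 10 genes.

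Among the kinases, Jak1 pairs with the receptor chains for IL-2, IL-7, IL-15, IL-21 and the interferons, and Jak3 binds the common gamma chain. Jak1 (chr4:101152367-101265282, minus strand, GRCm38) had 556, 452, 530.4, 525 and 463 CPM in untreated mice 1 to 5, and in anti-LAG-3 mice it ran from 399.8 to 482 CPM with a median of 467. All 6 anti-LAG-3 libraries lay below the untreated median of 525 CPM, and 3 untreated libraries lay above every anti-LAG-3 library, but the other untreated libraries, mice 2 and 5, fell within the anti-LAG-3 range. The mean was 505 ± 45.4 CPM (SD, n = 5) against 458 ± 29.3 CPM (SD, n = 6). The log2 fold change was -0.16 (standard error 0.080, 95% interval -0.32 to 0.0094), with an unadjusted p of 0.0636 (edgeR, quasi-likelihood) and 0.0974 in an exact two-sided permutation test over the mice. Within RNABC9 the difference in log2 CPM was -0.21 (3 mice against 3) and within RNABC8 it was -0.16 with a single untreated mouse. With the RNABC number as a covariate, a fit in which untreated mouse 2 takes its own coefficient and so adds nothing to the contrast, the log2 fold change was -0.20 with an unadjusted p of 0.0227, and leaving out each library in turn without that covariate gave -0.19 to -0.11.

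Jak3 (chr8:71676296-71690575, plus strand) had 103, 69.2, 63.2, 58.9 and 99.4 CPM in untreated mice 1 to 5, and between 66.1 and 103 CPM with a median of 82.9 in anti-LAG-3 mice. The untreated mice split into 2 high and 3 low libraries, and the anti-LAG-3 libraries covered both levels. The log2 fold change was 0.091 (standard error 0.16, 95% interval -0.24 to 0.42, unadjusted p = 0.580 in edgeR's quasi-likelihood test), and it took the other sign, -0.022, without untreated mouse 3.

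Among the STATs, Stat4 transmits IL-12 signals and Stat5a and Stat5b transmit IL-2, IL-7 and IL-15 signals, while Stat3 is used by IL-6, IL-10, IL-21 and IL-27. Stat4 (chr1:51987148-52107189, plus strand) had 256, 234, 269, 299.6 and 231 CPM in untreated mice 1 to 5 and ran from 192 to 247 CPM with a median of 214 in anti-LAG-3 mice. Each of the 6 anti-LAG-3 libraries lay below the untreated median, and 4 lay below every untreated library, so that the overlap rested on anti-LAG-3 mice 7 and 11. The mean of 258 ± 28.2 CPM (SD, n = 5) compared with 218 ± 19.4 CPM (SD, n = 6). The log2 fold change was -0.24 (standard error 0.099, 95% interval -0.44 to -0.037), a level 0.847 times that of untreated mice, with an unadjusted p of 0.0225 (edgeR, quasi-likelihood) and 0.0173 in an exact two-sided permutation test. The difference within RNABC9 was -0.21 on the log2 scale (unadjusted p = 0.0884 in edgeR's quasi-likelihood test on those 6 libraries), and within RNABC8 it was -0.46. With the RNABC number as a covariate the log2 fold change was -0.28 (unadjusted p = 0.0128, edgeR, quasi-likelihood). Leaving out each library in turn without that covariate gave values between -0.30 and -0.19. The unadjusted p stayed under 0.05 in 8 of these 11 fits, and rose to 0.0502, 0.0744 and 0.0588 without untreated mouse 3, untreated mouse 4 and anti-LAG-3 mouse 9. Of the 50-base stretches of Stat4 transcripts, 21.7% also occur in the overlapping gene Gm28177, which had 7 to 58 counts per library, so its count is uncertain. With the counts of both summed, a choice made after seeing the data, the log2 fold change was -0.23 (standard error 0.092).

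Stat5b (chr11:100780731-100850724, minus strand) had the lowest log2 fold change of the 10 genes. It had 42.7, 39.6, 53.4, 58.9 and 61.9 CPM in untreated mice 1 to 5, and ran from 23.7 to 44.7 CPM with a median of 37.1 in anti-LAG-3 mice. Untreated mice 3, 4 and 5 lay above every anti-LAG-3 library, whereas untreated mice 1 and 2 lay within their range. All 6 anti-LAG-3 libraries were below the untreated median, and 4 were below every untreated library. The mean was 51.3 ± 9.83 CPM (SD, n = 5) against 36.7 ± 7.36 CPM (SD, n = 6), and the log2 fold change was -0.44 (standard error 0.18, 95% interval -0.81 to -0.066). This is a level 0.739 times that of untreated mice, with an interval from 0.572 to 0.956 times, an unadjusted p of 0.0227 (edgeR, quasi-likelihood) and 0.0260 in an exact two-sided permutation test. The count in a library was low, from 7 to 66. The spread between mice of a group, as chi-square per degree of freedom, was 0.811, where counting alone gives 1 and the median gene had 1.46. Within RNABC9 the difference was -0.38 on the log2 scale, where the fit to those libraries gave an unadjusted p of 0.0714, and within RNABC8 it was -0.79. With the RNABC number as a covariate the log2 fold change was -0.47 (unadjusted p = 0.0199, edgeR, quasi-likelihood). Leaving out each library in turn without that covariate gave -0.52 to -0.37. The unadjusted p of these fits was over 0.05 without untreated mouse 3 (0.0514) and without untreated mouse 5 (0.0652).

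Stat5a (chr11:100859351-100885169, plus strand) lies beside Stat5b on chromosome 11 and codes for a closely related protein. It had 37.8, 42.8, 24.0, 30.7 and 31.9 CPM in untreated mice 1 to 5, and ran from 21.4 to 47.9 CPM with a median of 25.4 in anti-LAG-3 mice. The anti-LAG-3 libraries of mice 9 and 11 (42.2 and 47.9 CPM) stood well above the other 4, none of which exceeded 27.1 CPM. The log2 fold change was -0.14 (standard error 0.24, 95% interval -0.64 to 0.35, unadjusted p = 0.555 in edgeR's quasi-likelihood test), and it was 0.0021 without anti-LAG-3 mouse 7.

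Stat5a and Stat5b share 608 distinct 50-base stretches. In all, 8.52% of the stretches of Stat5a also occur in other genes, nearly all of them in Stat5b, as do 11.0% of those of Stat5b, and the longest identical run of their coding sequences was 324 bases. How reads that map to both genes were counted is not given in the sources used here, so both counts are uncertain. The run spans exons 7 to 9 of 20 in Stat5a (chr11:100874023-100874983, plus strand) and exons 6 to 8 of 19 in Stat5b (chr11:100797741-100798701, minus strand), and a read that falls within it cannot be assigned. Its middle exon, exon 8 of Stat5a (chr11:100874339-100874490) and exon 7 of Stat5b (chr11:100798234-100798385), has the same 152 bases in both genes and is shown whole, 5′ to 3′ on the coding strand.
Stat5a and Stat5b: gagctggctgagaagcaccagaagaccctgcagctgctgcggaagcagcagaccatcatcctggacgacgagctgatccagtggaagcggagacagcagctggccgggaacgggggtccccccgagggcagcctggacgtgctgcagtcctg
With the counts of both genes summed, an alternative added after seeing the data, the mean was 84.7 CPM in untreated and 67.7 CPM in anti-LAG-3 mice, and the fitted log2 fold change was -0.31 (standard error 0.15, with an unadjusted p = 0.0446 and a Benjamini-Hochberg adjusted p = 0.999 from edgeR). The log2 ratio of Stat5b to Stat5a was 0.58 ± 0.52 without treatment (SD, n = 5) and 0.26 ± 0.50 with it (SD, n = 6), a difference within the spread between mice (p = 0.318, two-sided exact permutation test). A change of Stat5b that Stat5a did not share was therefore not shown.

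Stat3 (chr11:100885098-100939540, minus strand), whose annotated end overlaps that of Stat5a, had 712, 547, 567, 619.8 and 638 CPM in untreated mice 1 to 5, and from 490.4 to 659.8 CPM with a median of 598 in anti-LAG-3 mice. The difference came to a log2 fold change of -0.096 (standard error 0.089, 95% interval -0.28 to 0.087). It ranged from -0.15 without anti-LAG-3 mouse 7 to -0.030 without untreated mouse 1, and was -0.20 in the RNABC9 libraries alone. Its spread between mice of a group was 7.40 times what counting alone gives, a measure that grows with the count, which was 166 to 1201 for Stat3. As a coefficient of variation beyond counting it was 0.104, against 0.120 for the median gene. In anti-LAG-3 mice 6 and 9 the level of Stat3 lay below every untreated library.

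**Figure D2:**
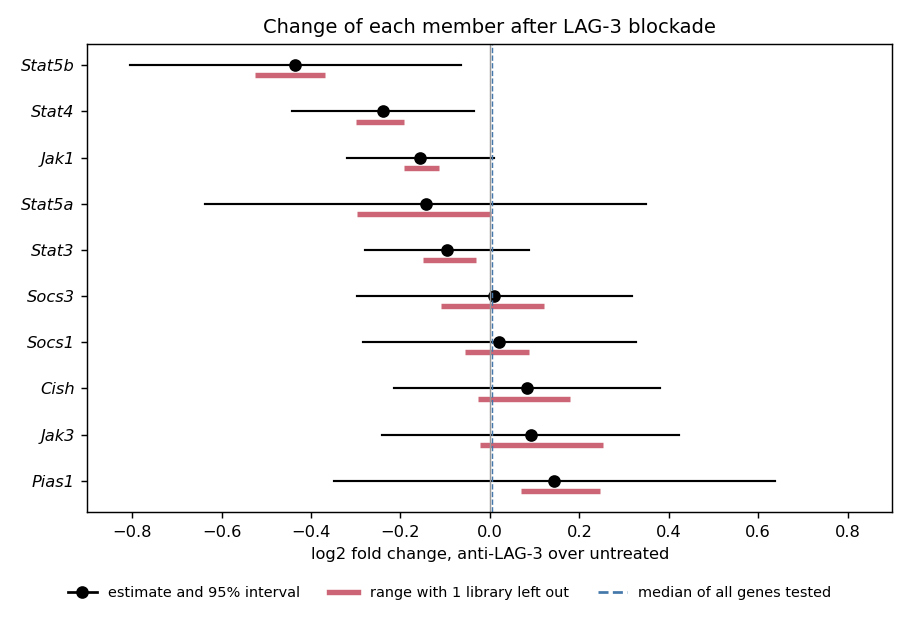
Log2 fold change of each gene after LAG-3 blockade (black points, anti-LAG-3 over untreated) with its 95% interval (black lines) and the range of values when each of the 11 libraries was left out in turn (red bars), beside the median of all genes tested (dashed). The intervals of Stat5b and Stat4 lie below 0, and those of the other 8 genes include 0.

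The feedback inhibitors Socs1, Socs3 and Cish did not differ beyond the spread between mice. Socs1, which blocks JAK kinases directly and restrains IFN-γ and IL-2 signals (chr16:10782240-10785536, minus strand), had 85.4, 119, 89.0, 84.5 and 76.9 CPM in untreated mice 1 to 5. In anti-LAG-3 mice it ran from 64.3 to 108 CPM with a median of 89.0, close to the untreated values, and the log2 fold change was 0.021 (standard error 0.15, 95% interval -0.28 to 0.33). Anti-LAG-3 mice 7, 9 and 11 had 103 to 108 CPM and mice 6, 8 and 10 had 64.3 to 75.0 CPM, below every untreated library.

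Socs3, which binds JAKs and the IL-6 receptor chain gp130 (chr11:117966079-117970047, minus strand), had 89.5, 95.6, 119, 164 and 129 CPM in untreated mice 1 to 5, and ran from 84.5 to 140.3 CPM with a median of 120.2 in anti-LAG-3 mice. The groups covered nearly the same range. The fold change was near 1 (log2 value 0.0097, standard error 0.15, 95% interval -0.30 to 0.32), and its sign depended on the libraries. The difference in log2 CPM was 0.20 within RNABC9 and -0.73 within RNABC8, whose only untreated mouse had the highest Socs3 level of all, 164 CPM. The myeloid markers summed to 122 CPM in anti-LAG-3 mouse 10, which had 84.5 CPM of Socs3. They summed to 17.4 CPM in anti-LAG-3 mouse 9, with 140.3 CPM of Socs3, and to 16.5 CPM in untreated mouse 2, with 95.6 CPM. The part of myeloid reads in these levels was not tested.

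Cish, which binds activated cytokine receptors and restrains IL-2 and T cell receptor signals (chr9:107296026-107302784, plus strand), had 92.0, 89.0, 122, 94.8 and 105 CPM in untreated mice 1 to 5. In anti-LAG-3 mice it ran from 78.2 to 132 CPM with a median of 113, and 2 of the 6 libraries exceeded every untreated one. The fitted log2 fold change was 0.082 (standard error 0.14, 95% interval -0.22 to 0.38), and the difference in log2 CPM was -0.11 within RNABC9 and 0.32 within RNABC8, with its single untreated mouse. Of its 50-base stretches 9.35% also occur in other genes, mainly in Gm17041 and Gm17040, which had at most 4 counts and 1 count in a library.

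Pias1 (chr9:62878368-62987924, minus strand) had 26.3, 33.0, 29.4, 30.7 and 20.6 CPM in untreated mice 1 to 5, and in anti-LAG-3 mice it ran from 6.76 to 40.3 CPM with a median of 30.6. The lowest value, in anti-LAG-3 mouse 10, rests on 2 counts, whereas the other anti-LAG-3 libraries had at least 28.6 CPM. The fitted log2 fold change was 0.14 (standard error 0.24, 95% interval -0.35 to 0.64). It ranged from 0.069 without untreated mouse 5 to 0.25 without anti-LAG-3 mouse 10.

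The second comparison set the levels of the 10 genes against each other, per length, as CPM per kilobase of annotated exon. A level per length assumes that reads fall evenly along a transcript, which counts per gene do not show. By the study's methods, a barcoded primer was joined to the template-switched end of the cDNA before fragmentation. If only fragments with that end were counted, counts would not grow with exon length. The order below need then not be an order of transcript levels. Where the reads lay along the transcripts was not tested. Jak1 had 66.3 ± 5.97 (SD, n = 11), Stat3 62.8 ± 7.08 and Stat4 60.9 ± 7.96 CPM per kilobase. Neither Jak1 and Stat3 nor Stat3 and Stat4, the neighbouring pairs, differed beyond the spread over the 11 libraries (exact two-sided paired permutation test, adjusted p = 0.0967 and 0.465 over 9 pairs). Socs3 followed with 40.3 ± 8.65, below Stat4 in 11 of 11 libraries (exact permutation test, adjusted p = 0.00293), and Socs1 with 30.7 ± 5.85, below Socs3 in 9 of 11 (adjusted p = 0.0352, exact permutation test). The latter difference did not hold in 7 of 11 fits with a library left out, where its adjusted p in the exact permutation test reached 0.0703. Cish with 16.4 ± 2.81 and Jak3 with 15.2 ± 3.18 CPM per kilobase did not differ from each other (adjusted p = 0.465, exact permutation test), and Cish lay below Socs1 in 11 of 11 libraries.

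Stat5b, with 7.83 ± 2.01 CPM per kilobase, lay below Jak3 in 11 of 11 libraries (exact permutation test, adjusted p = 0.00293) and above Stat5a, with 4.50 ± 1.29, in 10 of 11 (adjusted p = 0.00439, exact permutation test). The step from Stat5b to Stat5a rests on the length used. Per kilobase of the longest transcript the levels were 8.31 and 8.11, with Stat5b higher in 6 of 11 libraries (adjusted p = 0.828, exact permutation test). Pias1 came last with 4.22 ± 1.35 and did not differ from Stat5a by annotated exon length (adjusted p = 0.563, exact permutation test), while by longest transcript it lay below Stat5a in 9 of 11 libraries (adjusted p = 0.0117, exact permutation test). By longest transcript, Stat3 (99.0) and Jak1 (97.7) changed places without a difference between them, and Stat4 (79.1) lay below Jak1 in 11 of 11 libraries (adjusted p = 0.00293, exact permutation test). The order within a treatment group was not tested. In untreated mice the mean of Stat4 (66.6 CPM per kilobase of exon) was above that of Stat3 (64.7), and in anti-LAG-3 mice it was below it (56.2 against 61.1). With a library left out, the difference between Jak1 and Stat3 had an adjusted p under 0.05 in 1 of 11 cases, that without anti-LAG-3 mouse 7 (adjusted p = 0.0410, exact permutation test), and Pias1 ranked above Stat5a without anti-LAG-3 mouse 10, with no difference between them (adjusted p = 0.887, exact permutation test). The smallest p this test can give with 11 libraries is 0.000977 before adjustment.

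**Figure D3:**
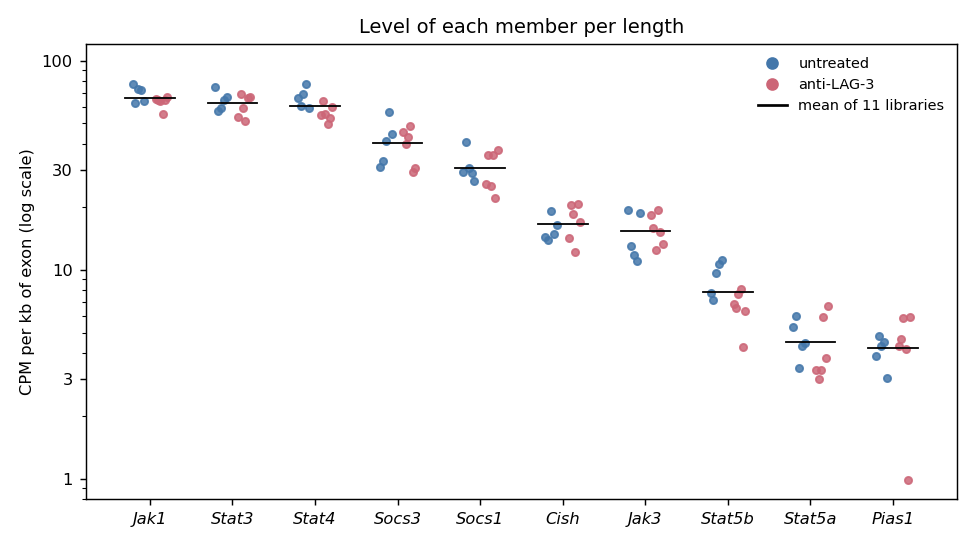
Level of each gene as CPM per kilobase of annotated exon (log axis) in the 5 untreated (blue) and 6 anti-LAG-3 (red) libraries, ordered by the mean of all 11 (black lines). Jak1, Stat3 and Stat4 lie at or above 49.7 in every library, and Stat5b, Stat5a and Pias1 at or below 11.2, with Pias1 in 1 anti-LAG-3 library at 0.990. The division by length assumes reads spread evenly along a transcript, which was not tested.

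The third comparison asked whether members varied together between mice. Of 45 pairs, 0 had an adjusted p under 0.05 for Pearson's r of log2 CPM (permutation test, Benjamini-Hochberg over the pairs). The closest pair was Jak1 and Stat4, with r = 0.81 (permutation p = 0.00312, adjusted 0.140) and rho = 0.69 (permutation p = 0.0219) over the 11 libraries. It kept r = 0.80 without the 2 libraries farthest from the median of Jak1, r = 0.70 with each gene centred on its group mean and r = 0.88 within the 6 RNABC9 libraries. Next came Stat5b and Socs3 with r = 0.70 (permutation p = 0.0152, adjusted 0.342) and rho = 0.68 (permutation p = 0.0256). With group means removed, r of this pair was 0.84 (permutation p = 0.00072), and it was the 1 pair that passed in that setting. It was 0.19 within RNABC9 and 0.62 without the 2 libraries farthest from the median of Stat5b. Stat5a and Stat5b, which share sequence, had r = 0.036 (permutation p = 0.921, adjusted 0.964).

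As a description of all 6948 other genes tested, the gene most like each member over the 11 libraries in log2 CPM was Irf8 for Jak1 (r = 0.84), Adprh for Jak3 (0.86), Gabpb1 for Stat3 (0.89), Trip12 for Stat4 (0.89) and Kpna4 for Stat5b (0.93). For Stat5a it was Morf4l1-ps1 (r = 0.91), for Socs1 Acd (0.90), for Socs3 Fam53a (0.90), for Cish Acbd6 (0.88) and for Pias1 Mrpl50 (0.94). These values are the highest of 6948 over 11 libraries that differ in depth, and Mrpl50 and Pias1 are both low in count.

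None of the other genes of the pathway passed the test either, and each gene tested had an adjusted p of 0.999 (edgeR, quasi-likelihood, Benjamini-Hochberg). Of 5 other JAKs and STATs tested, 2 had higher and 3 lower levels, with a median log2 fold change of -0.014. The log2 fold change was -0.24 for Jak2 (standard error 0.22) and -0.014 for Stat6, the IL-4 STAT. Of the other SOCS genes only Socs4 passed the filter (-0.10), while Socs2, Socs5, Socs6 and Socs7 were too low to be tested.

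Of 7 other PIAS proteins and phosphatases that act on JAKs or STATs, 6 were tested, 4 higher and 2 lower, with a median of 0.044. Ptpn6, the phosphatase SHP-1, had 203 ± 17.1 CPM without treatment (SD, n = 5) and 240.4 ± 48.5 CPM with it (SD, n = 6), with a fitted log2 fold change of 0.20 (standard error 0.11, unadjusted p = 0.0795 in edgeR's quasi-likelihood test). The value was 0.23 for Ptpn11, which encodes SHP-2 (unadjusted p = 0.146 in the same test), and 0.017 for Ptpn1.

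Of 19 cytokine receptor chains that signal through JAKs, 14 were tested, 4 higher and 10 lower, with a median of -0.045, and 1 had an unadjusted p under 0.05. This was Il21r, the IL-21 receptor, with 229.96 ± 31.8 CPM without treatment (SD, n = 5) and 195 ± 35.6 CPM with it (SD, n = 6), with a fitted log2 fold change of -0.26 (standard error 0.12, unadjusted p = 0.0407 in edgeR's quasi-likelihood test). Il2rg, the common gamma chain that binds Jak3, had a log2 fold change of 0.042, Ifngr1 one of -0.020 and Ifnar2 one of 0.16. Il6ra, Il6st, Il9r, Il12rb1 and Ifngr2 were below the filter.

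Of 22 genes known as STAT targets in T cells, 20 were tested, 8 higher and 12 lower, with a median of -0.035. The 1 with an unadjusted p under 0.05 was Il18r1, the IL-18 receptor chain, with 221 ± 35.4 CPM without treatment (SD, n = 5) and 269 ± 36.5 CPM with it (SD, n = 6), with a fitted log2 fold change of 0.25 (standard error 0.11, unadjusted p = 0.0314 in edgeR's quasi-likelihood test). The kinase gene Pim1, a target of STAT5, had a log2 fold change of -0.10 and the AP-1 gene Junb one of 0.12. Il2ra stands in both of the last 2 lists, at -0.012.

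**Figure D4:**
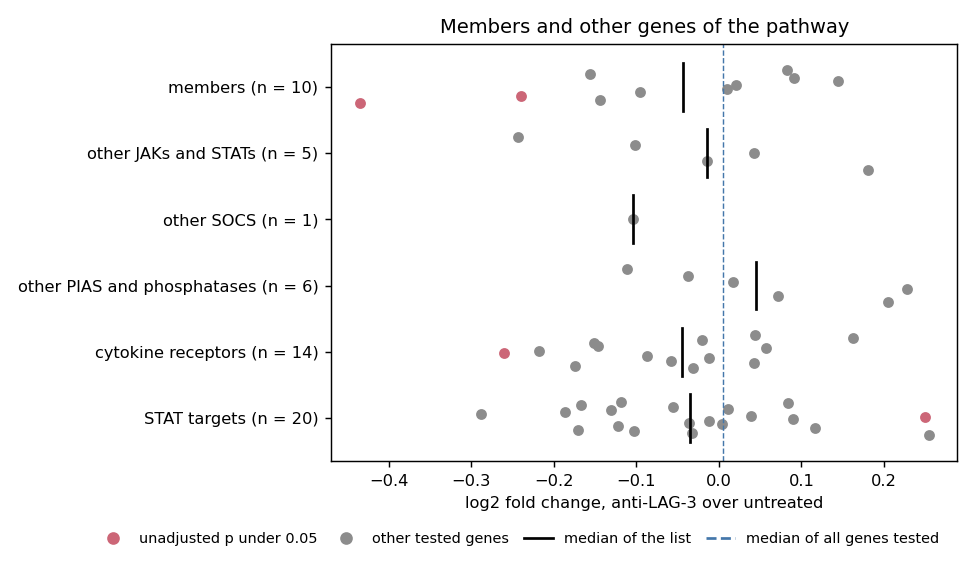
Log2 fold change (anti-LAG-3 over untreated) of the tested genes among the 10 members and 5 lists of other pathway genes, with the median of each list (black) and of all genes tested (dashed). Genes with an unadjusted p under 0.05 (red) are Stat5b and Stat4 among the members, Il21r among the receptors and Il18r1 among the targets, and no list median is farther from 0 than that of the single tested SOCS gene, -0.10.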

How the data were processed

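Reads were trimmed with cutadapt and mapped with Bowtie2 to reference RNA of GRCm38. The submitters' processing notes name cutadapt 4.1 and Bowtie2 2.4.5, and the study's methods name other versions of both. The authors deposited raw counts per gene symbol, without normalization, for 11 libraries. Use of strand and of reads that map to several genes is not given in the sources used here. All columns were matched to samples by title.

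The deposited counts were filtered by edgeR's filterByExpr (minimum count 10, minimum total 15, 5 libraries) and normalized by TMM. They were tested with edgeR 4.0.16 (quasi-likelihood test, Benjamini-Hochberg over all genes tested, threshold 0.05) in R 4.3.3, with 5 untreated against 6 anti-LAG-3 libraries. Standard errors were derived from the fold change and its F statistic. Log2 CPM used a prior count of 2, and levels per length a pseudocount of 0.5 CPM in the tests. Markers were summed as CPM on the TMM-normalized sizes of the filtered libraries and tested as log2(CPM + 1). The alternatives were the likelihood ratio test, DESeq2 1.42.0, RLE factors, no filter, the RNABC number as covariate, RNABC9 alone, exact permutation, summed counts and each library left out.

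Gene models and shared 50-base stretches came from GENCODE M21 on GRCm38, and promoters from RefSeq. The members and gene lists were chosen with earlier results of these data known. Some results are not reported here. All members are described, and, apart from these, from each list the 2 genes with the smallest p and the 2 with the highest mean CPM are named. Replicates are separate mice. No molecular identifier entered the counts, so the 3-count limits cover counting error only.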

Additional observations from a re-analysis of the deposited data

Results flagged for a closer look

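In 20 sets of values (10 genes in each of 2 groups), a library was checked for standing apart from the rest of its group by Dixon's criterion, which chance meets in about 1 of 20 sets, and 2 did. Jak1 in anti-LAG-3 mouse 9 was low, with a log2 CPM of 8.65 (399.8 CPM, 322 counts), whereas the other anti-LAG-3 libraries had 462 to 482 CPM. Pias1 in anti-LAG-3 mouse 10 was low, with a log2 CPM of 3.23 (6.76 CPM, 2 counts), whereas the others had 28.6 to 40.3 CPM.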

How the results depend on the processing

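The count of genes changed after LAG-3 blockade was 0 in the alternative tests and normalizations, with the RNABC covariate and in RNABC9 alone, and 3 of 24024 with no filter on low counts, where the lowest adjusted p of a member was 0.722. It ranged from 0 to 2 with a library left out, with 2 without anti-LAG-3 mouse 7. No member passed in any of these. Stat5b, Stat4, Jak1 and Stat3 kept a negative sign in every alternative and with every library left out. The sign of other members turned. For Socs3 it turned in the likelihood ratio test (-0.0051), in DESeq2 (-0.017), with the RNABC covariate (-0.023) and in the difference of log2 CPM of the exact permutation test (-0.058), which also gave -0.060 for Socs1 and -0.063 for Pias1. Cish was at -0.052 in RNABC9 alone. With a library left out, the log2 fold change ranged from -0.022 to 0.25 for Jak3, from -0.30 to 0.0021 for Stat5a, from -0.055 to 0.087 for Socs1, from -0.11 to 0.12 for Socs3 and from -0.027 to 0.18 for Cish. The cause was not tested. Of the member pairs, 1 passed with genes centred on group means, Stat5b and Socs3. The number of neighbouring pairs that differed in level per length was 6 by longest transcript and 4 to 6 with a library left out, against 5 of 9. The summed myeloid markers did not pass under any alternative. No paired analysis was possible because the groups share no replicate number (the labels number the libraries 1 to 11). Depth limits the lowest members most, Pias1 with 2 to 58 counts per library, Stat5b with 7 to 66 and Stat5a with 8 to 46.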
